A study of Mus musculus with 6 samples.

Results

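Genes of the endothelin and renin-angiotensin systems were followed in primary lung endothelial cultures of Zmpste24 knockout and wild type mice. They are the endothelin ligand gene Edn1, its receptor genes Ednra and Ednrb, its converting enzyme genes Ece1 and Ece2, and the angiotensin system genes Ace, Agtr1a and Agt. They were chosen by symbol, and all 8 were among the 53735 genes of the deposited table. The series holds 4 libraries labelled Zmpste24 knockout (numbered 1 to 4) and 2 labelled wild type (numbered 1 and 2). Zmpste24 encodes the metalloprotease that cuts prelamin A, and the series relates its loss to the endothelium in Hutchinson-Gilford progeria. Per the labels and the design text, the lung cells were selected with beads for CD31 and ICAM2, were not passaged, reached confluence on gelatin and received no treatment. The design text describes the cultures as nearly pure endothelium. The labels name no strain, age, sex, deleted exon or Cre driver, and do not say that each library is a separate animal. The p-values below therefore measure the spread between libraries, which may be technical.

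Endothelin-1 is made by endothelial cells as a long precursor, which endothelin-converting enzymes cut to the active peptide. Its A-type receptor on smooth muscle cells and pericytes drives contraction, while the B-type receptor on endothelial cells leads to nitric oxide release and removes the peptide from the circulation. In the renin-angiotensin system, angiotensinogen is cut by renin and then by angiotensin-converting enzyme, which lung capillary endothelium carries in abundance, and the resulting angiotensin II acts mainly through the type 1 receptor.

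Values are normalized counts, that is reads per gene divided by the authors' size factor of each library, from 32699024 to 45613685 reads per library. Knockout 1 and wild type 1 (set 1 below) stood apart from the other 4 libraries (set 2). All tests were run on the 15229 genes whose mean reached 10 normalized counts. Across these genes, which are not replicates, r between libraries was 0.978 to 0.990 within a set and 0.908 to 0.935 between the sets. The labels mention 2 cohorts of mice but place no library in either, so the sets come from the data. Both sets hold both genotypes, and set 1 holds 1 library of each. Zmpste24 itself had 3599 to 5079 counts in knockout and 4148 and 5503 in wild type libraries, and since the deleted part is not given this level does not check the labels. Endothelial genes were present throughout, with Cdh5 at 13135 to 62133 counts. The 7 endothelial markers summed to 28741 to 81164 counts in knockout and to 42314 and 139872 in wild type libraries, with all 7 detected in all 6 libraries. The 5 fibroblast markers, led by Col1a1 and Col1a2, summed to 327320 to 343990 counts in knockout and to 358844 and 373904 in wild type libraries, and were likewise all detected. The 5 mesothelial markers, led by Msln and all detected, summed to 61241 counts in knockout 1 and 26485 in wild type 1. In set 2 they summed to 8550 to 16682 counts. In such bulk RNA, fewer cells of a type and less RNA per cell cannot be told apart.

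Edn1 was lower in every knockout library than in either wild type library (chr13:42301476-42307990, plus strand, GRCm38). It had 2535, 2477, 1643 and 1546 normalized counts in knockout 1 to 4, against 3014 and 2742 in wild type 1 and 2. The 2 groups did not overlap, and knockout 3 and 4 lay well below knockout 1 and 2. Such a separation was found in 4.68% of all genes tested, downward in 2.32%, and Edn1 was the 1 member of 8 that showed it. The mean of Edn1 was 2050 ± 528 (SD, n = 4) in knockout libraries and 2878 ± 192 (SD, n = 2) in wild type libraries. On the log2(normalized count + 1) scale, limma with a genotype term alone gave a log2 difference of −0.52 ± 0.25 (SE; 95% interval −1.14 to 0.09; adjusted p = 1.00). A fit that also held the library set, called the set-adjusted fit below, gave −0.44 ± 0.22 (limma adjusted p = 0.999), so the difference did not pass the threshold of 0.05. With the shared title number as a replicate block it was −0.20. Each knockout library was below the wild type library of its set, by log2 −0.25 in knockout 1, −0.15 in knockout 2, −0.74 in knockout 3 and −0.83 in knockout 4. Of the 4 lymphatic markers, all detected, Prox1, Lyve1 and Flt4 were separated downward as Edn1 was, and the 4 summed to 18714 to 38933 counts in knockout libraries and to 37843 and 54270 in wild type libraries. Of the 7 endothelial markers Kdr was separated downward, as was Col1a2 of the 5 fibroblast markers, whose sums given above did not overlap either. The part of these cells in the level of Edn1 was not tested.

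**Figure D1:**
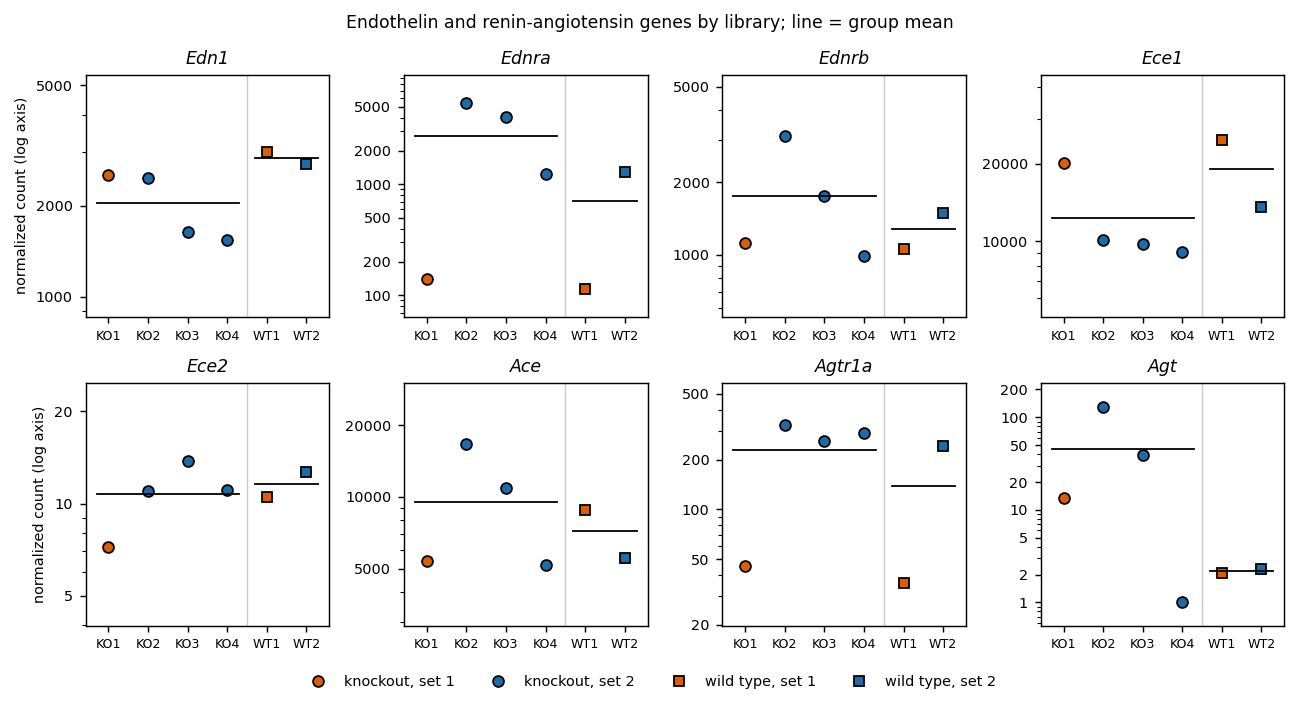
Normalized count (log axis, a scale per panel) of the 8 genes in each library, knockout (KO, circles) left of wild type (WT, squares), with orange for set 1 and blue for set 2 and a line at each group mean. In the Edn1 panel all 4 knockout libraries lie at 1546 to 2535 counts, below wild type libraries at 2742 and 3014; in the panels of Ednra and Agtr1a the orange points lie far below the blue ones.

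Ece1, the main endothelin-converting enzyme gene, was lower in knockout libraries within both sets. It had 20267, 10132, 9762 and 9089 counts in knockout 1 to 4, against 24860 and 13528 in wild type 1 and 2. The sets did not overlap, with both libraries of set 1 above all of set 2, which held for 30.7% of all genes tested. The genotypes overlapped across the sets, since knockout 1 exceeded wild type 2. With genotype alone the limma log2 difference was −0.66 ± 0.41 (SE; 95% interval −1.66 to 0.35; adjusted p = 1.00). It was −0.22 without wild type 1 and −1.10 without wild type 2.

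In the set-adjusted fit, the limma log2 difference of Ece1 was −0.41 ± 0.08 (SE; 95% interval −0.62 to −0.20; unadjusted p = 0.00386, adjusted p = 0.999). On the linear scale this is −24.7%, with a 95% interval of −35.1% to −12.8%. Set-adjusted DESeq2 gave −0.41 ± 0.10 (SE) and called Ece1 (DESeq2 adjusted p = 0.0248). It called 0.328% of all genes tested, 0.256% in the lower direction, and Ece1 was the 1 member called among 8. The set-adjusted quasi-likelihood test of edgeR did not call it (unadjusted p = 0.00441, adjusted p = 1.00). The call did not survive the loss of any single library. Without knockout 1, 2, 3 or 4 the DESeq2 adjusted p was 0.851, 0.234, 1.00 and 0.0526, and without wild type 1 or 2 it was 0.794 and 1.00, with log2 differences from −0.49 to −0.29. Without either library of set 1 this fit sets the knockout libraries of set 2 against wild type 2 alone, and without wild type 2 it sets knockout 1 against wild type 1. All 4 knockout libraries lay below the wild type of their set, by log2 −0.29, −0.42, −0.47 and −0.57. The comparisons of knockout 2, 3 and 4 share wild type 2, and 10.8% of all genes tested were below in all 4. Ece1 lies on chromosome 4 (chr4:137862237-137965229, plus strand), 16.8 Mb from Zmpste24 (chr4:121059237-121098241, minus strand). The lymphatic markers moved with Ece1 in both sets, with a summed 38933 counts in knockout 1 against 54270 in wild type 1, and 22631, 20211 and 18714 in knockout 2, 3 and 4 against 37843 in wild type 2. The endothelial markers summed to 81164 counts in knockout 1 against 139872 in wild type 1, and to 46612, 40297 and 28741 in knockout 2, 3 and 4 against 42314 in wild type 2. Below the wild type of their set in all 4 knockout libraries were 3 of the 4 lymphatic and 3 of the 7 endothelial markers. All markers of both lists had set-adjusted limma differences below 0, and the DESeq2 fit that called Ece1 also called Flt4 and Vwf. Their part in the difference of Ece1 was not tested.

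Ece2, the second converting enzyme gene (chr16:20629828-20646485, plus strand), was near the lowest level tested. It had 7.19, 10.9, 13.7 and 11.1 counts in knockout 1 to 4, against 10.5 and 12.7 in wild type 1 and 2, from 7 to 16 reads per library. The groups overlapped, and knockout 1 had the fewest reads. The limma log2 difference was −0.12 ± 0.41 with genotype alone and −0.25 ± 0.31 in the set-adjusted fit (SE; adjusted p = 1.00 and 0.999). In the annotation used here for positions, another protein-coding gene covers most of Ece2 on the same strand. The deposited data hold no row under its name. Whether reads of the 2 were split or lost is not known, and the level of Ece2 is uncertain.

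The type A receptor gene Ednra had the widest spread of the abundant members and followed the library sets (chr8:77663031-77724464, minus strand). It had 140, 5419, 4054 and 1248 counts in knockout 1 to 4, against 115 and 1287 in wild type 1 and 2. The 4 libraries of set 2 stood at 1248 to 5419 counts, all above the 115 and 140 of set 1, a separation found in 32.7% of all genes tested. Within set 2, knockout 2 and 3 were far above wild type 2, while knockout 4 was at about its level. The log2 differences from the wild type of the set were 0.28 in knockout 1, 2.07 in knockout 2, 1.65 in knockout 3 and −0.04 in knockout 4. Limma gave 1.86 ± 1.71 with genotype alone and 0.85 ± 0.65 in the set-adjusted fit (SE; 95% intervals −2.33 to 6.04 and −0.78 to 2.47; adjusted p = 1.00 and 0.999). These intervals hold both a decrease and a several-fold increase. The value with genotype alone was 0.12 without wild type 1 and 3.59 without wild type 2.

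Some genes of pericytes and fibroblasts shared the top libraries of Ednra and others did not. Pdgfrb, the receptor gene that marks pericytes and other mural cells, had 6708, 22486, 19138 and 10959 counts in knockout 1 to 4, against 14572 and 12702 in wild type 1 and 2. Rgs5, a pericyte gene whose product dampens signalling of the receptor class to which both endothelin receptors belong, had 60.6, 776, 687 and 158 counts in knockout 1 to 4, against 36.6 and 41.5 in wild type 1 and 2. Pdgfra, a fibroblast receptor gene, had 3946, 69228, 58581 and 34290 counts in knockout 1 to 4, against 5842 and 39694 in wild type 1 and 2. All 3 were highest in knockout 2 and next highest in knockout 3, as Ednra was, which held for 2 of the 7 pericyte and smooth muscle markers and 1 of the 5 fibroblast markers. Col1a1 and Col1a2 were lowest in knockout 2, at 78891 and 140619 counts. The pericyte gene Cspg4 had 626, 120, 127 and 158 counts in knockout 1 to 4, against 2857 and 118 in wild type 1 and 2. The 7 pericyte and smooth muscle markers, all detected and dominated by Acta2 and Tagln, summed to 60263 to 204131 counts in knockout libraries and to 65463 and 232127 in wild type libraries, with set 1 highest. The 6 macrophage and leukocyte markers, all detected, also followed the sets, with 961 counts in knockout 1 and 24127 to 38575 in knockout 2 to 4, against 1126 in wild type 1 and 26535 in wild type 2. The part of these cells in the level of Ednra was not tested.

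The type B receptor gene Ednrb varied far less (chr14:103814625-103844402, minus strand). It had 1125, 3123, 1764 and 994 counts in knockout 1 to 4, against 1055 and 1498 in wild type 1 and 2. Knockout 2 was the highest and knockout 4 the lowest of all 6 libraries, so the spread within the knockout group contained both wild type values. Ednrb averaged 1751 ± 974 (SD, n = 4) in knockout and 1277 ± 313 (SD, n = 2) in wild type libraries. The limma log2 difference was 0.33 ± 0.48 with genotype alone and 0.18 ± 0.45 in the set-adjusted fit (SE; adjusted p = 1.00 and 0.999). With genotype alone its sign rested on knockout 2, without which it was −0.0036. Ednrb marks capillary aerocytes in mouse lung, and the 4 aerocyte markers, all detected, summed to 3457, 14177, 12347 and 8083 counts in knockout 1 to 4, against 5604 and 8790 in wild type 1 and 2. Tbx2 and Fibin, 2 of the 4 markers, were, like Ednrb, highest in knockout 2 and next highest in knockout 3. That order held for 12.7% of all genes tested. Apln, another of the 4, had 2242, 1699, 1929 and 1470 counts in knockout 1 to 4, against 4355 and 1701 in wild type 1 and 2. The aerocyte marker Car4 was low, at 17.8 to 203 counts, and highest in knockout 3. The part of these cells in the level of Ednrb was not tested.

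The balance of the 2 receptors differed between the sets more than between the genotypes. Levels of different genes were compared per kilobase of annotated exon, which is 5.476 kb for Ednra and 4.266 kb for Ednrb. On that scale Ednra made up 8.82% of the 2 receptors in knockout 1 and 7.84% in wild type 1. In set 2 it made up 57.5% in knockout 2, 64.2% in knockout 3 and 49.4% in knockout 4, against 40.1% in wild type 2. The 95% Wilson intervals, which cover counting error only, were 7.49% to 10.4% in knockout 1 and 6.53% to 9.38% in wild type 1, and so overlapped. In set 2 they ran from 47.3% to 51.5% in knockout 4, the lowest of the knockout libraries there, and from 38.2% to 42.0% in wild type 2. With 1 wild type library in each set these shares have no replicate check. They come from bulk RNA of all cells in a culture, and the sets differed in their cell type markers. The endothelial markers summed to 81164 and 139872 counts in set 1 and to 28741 to 46612 in set 2. The part of the mix of cells in these shares was not tested.

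**Figure D2:**
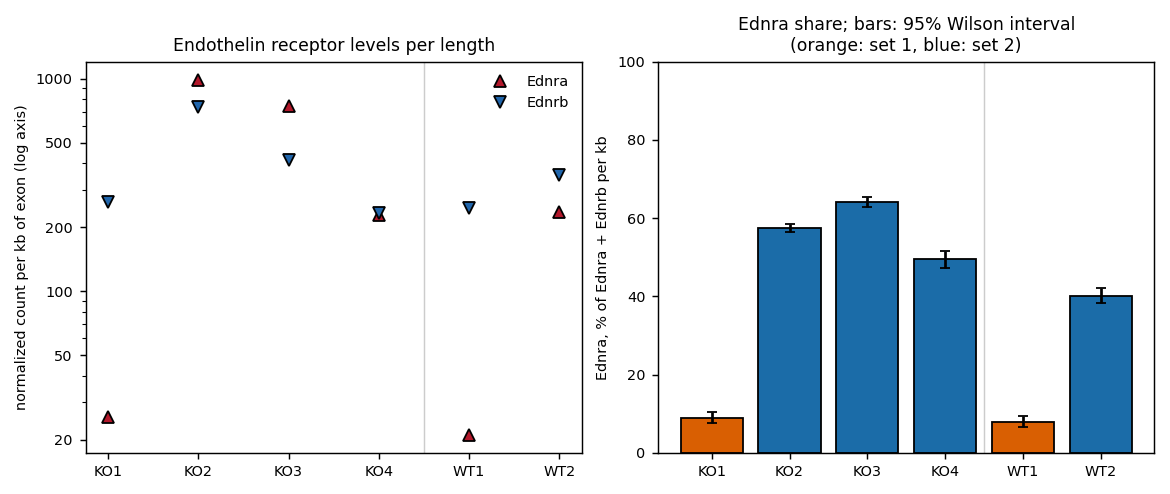
Left, normalized count per kilobase of exon (log axis) of Ednra and Ednrb in each library, knockout left of wild type; right, Ednra as a percentage of the sum of both per kilobase, with 95% Wilson intervals, orange for set 1 and blue for set 2. The Ednra share is 8.82% in knockout 1, 7.84% in wild type 1 and 40.1% to 64.2% in set 2.

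Ace, which encodes angiotensin-converting enzyme, was abundant in all libraries and differed in opposite directions between them (chr11:105967945-105989964, plus strand). It had 5381, 16615, 10878 and 5199 counts in knockout 1 to 4, against 8808 and 5524 in wild type 1 and 2. Knockout 2 and 3 were above both wild type libraries, and knockout 1 and 4 were below both. The log2 differences from the wild type of the set were −0.71, 1.59, 0.98 and −0.09 in knockout 1 to 4. Ace averaged 9518 ± 5415 (SD, n = 4) in knockout and 7166 ± 2322 (SD, n = 2) in wild type libraries. The limma log2 difference was 0.27 ± 0.54 with genotype alone and 0.21 ± 0.57 in the set-adjusted fit (SE; adjusted p = 1.00 and 0.999). With genotype alone its sign turned without knockout 2 (−0.0525) and without wild type 2 (−0.0629).

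Agtr1a, the type 1a angiotensin II receptor gene, followed the library sets (chr13:30336441-30382867, plus strand). It had 45.2, 322, 258 and 290 counts in knockout 1 to 4, against 35.6 and 242 in wild type 1 and 2. The values of set 2 were all above those of set 1, as in 32.7% of all genes tested, and the 3 knockout libraries of set 2 lay close together. The macrophage and leukocyte sums given beside Ednra were split the same way, as were Pdgfra, Tbx2 and Fibin. Acta2 and Tagln were split the other way, with set 1 higher. The part of these cells in the level of Agtr1a was not tested. Each knockout library was slightly above the wild type of its set, by log2 0.34, 0.41, 0.09 and 0.26, and 10.1% of all genes tested were above in all 4. In the set-adjusted fit the limma log2 difference was 0.29 ± 0.17 (SE; 95% interval −0.13 to 0.70; adjusted p = 0.999). With genotype alone it was 0.96 ± 1.08 (SE; adjusted p = 1.00), and without wild type 1 it was −0.41. The paralog Agtr1b is similar in sequence, so a share of the reads of both may be misassigned.

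Agt, the angiotensinogen gene, was nearly silent in both wild type libraries and varied most among knockout libraries (chr8:124556534-124569706, minus strand). It had 13.4, 130, 39.4 and 1.01 counts in knockout 1 to 4, against 2.09 and 2.30 in wild type 1 and 2. In reads these were 13, 142, 46 and 1 in knockout 1 to 4, against 2 in each wild type library. Knockout 1, 2 and 3 were above both wild type libraries and knockout 4 was below both, so the groups overlapped. As a ratio of normalized counts, knockout 2 was at 56.2 times wild type 2 (exact 95% interval 15.3 to 469, counting error only) and knockout 3 at 17.1 times (4.48 to 146). The ratio of knockout 4 to wild type 2 was 0.438 (0.00742 to 8.41), and that of knockout 1 to wild type 1 was 6.38 (1.44 to 58.2). The limma log2 difference was 2.63 ± 1.61 with genotype alone and 2.53 ± 1.72 in the set-adjusted fit (SE; adjusted p = 1.00 and 0.999). Set-adjusted DESeq2 gave an unadjusted p of 0.0183 and an adjusted p of 0.909. Without knockout 4, the one knockout library in which Agt was below wild type, it called Agt (log2 4.13, adjusted p = 0.0288) and 0.946% of all genes tested. Without any other single library it did not call Agt. Since Agt holds so few reads, its differences on the log2(count + 1) scale are understated.

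**Figure D3:**
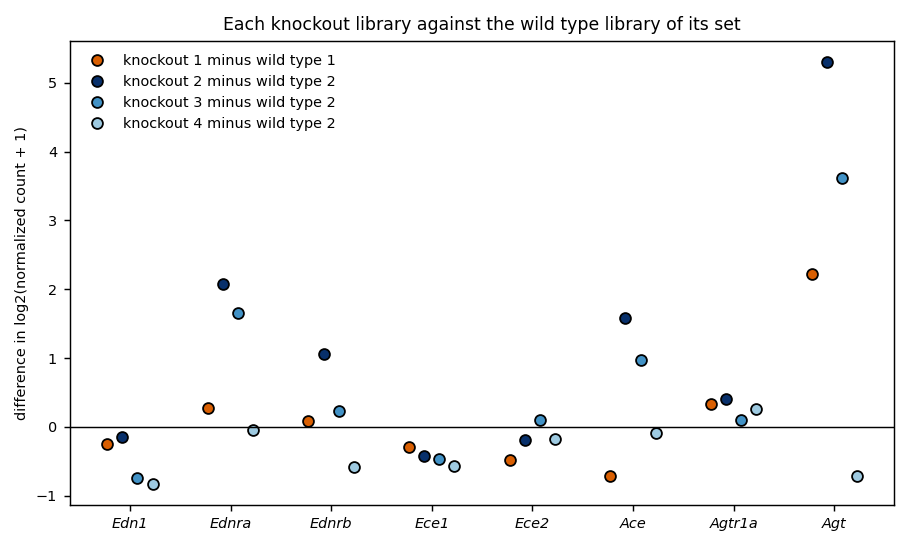
Difference in log2(normalized count + 1) of each knockout library from the wild type library of its set, for the 8 genes; knockout 1 is set against wild type 1, and knockout 2, 3 and 4 against wild type 2. Edn1 and Ece1 lie below 0 in all 4 comparisons and Agtr1a above 0 in all 4, while Ednra, Ednrb, Ace and Agt run from knockout 2 at the top through knockout 3 to knockout 4 in set 2.

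The members Ednra, Ednrb, Ace and Agt shared their 2 top libraries. They were highest in knockout 2 and next highest in knockout 3, as were 12.7% of all genes tested. The order of the other 4 libraries differed among them. Knockout 4 was the lowest of the 6 libraries for Ednrb, Ace and Agt, though for Agt by 1 read against 2 in each wild type library. The 250 bases before the annotated start of each of these 4 genes are shown because these members share their 2 top libraries (RefSeq, GRCm38.p6; 5′ to 3′ on the gene's strand; 7 of the 8 members are in that table). Both strands were searched for the TATA box TATAAA, the AP-1 motif TGANTCA and the GATA motif AGATAA, and capitals mark a match:
Ednra (chr8:77724453-77724702, minus strand): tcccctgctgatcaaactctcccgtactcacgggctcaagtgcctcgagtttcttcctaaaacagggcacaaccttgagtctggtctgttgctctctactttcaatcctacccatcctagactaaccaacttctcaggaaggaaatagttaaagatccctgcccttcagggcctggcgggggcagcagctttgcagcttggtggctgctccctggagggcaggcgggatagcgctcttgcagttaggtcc
Ednrb (chr14:103843702-103843951, minus strand): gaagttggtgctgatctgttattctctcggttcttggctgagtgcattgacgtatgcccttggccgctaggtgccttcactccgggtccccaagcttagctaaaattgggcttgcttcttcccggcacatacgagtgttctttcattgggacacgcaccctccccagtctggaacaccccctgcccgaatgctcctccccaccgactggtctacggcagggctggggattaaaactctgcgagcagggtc
Ace (chr11:105967698-105967947, plus strand): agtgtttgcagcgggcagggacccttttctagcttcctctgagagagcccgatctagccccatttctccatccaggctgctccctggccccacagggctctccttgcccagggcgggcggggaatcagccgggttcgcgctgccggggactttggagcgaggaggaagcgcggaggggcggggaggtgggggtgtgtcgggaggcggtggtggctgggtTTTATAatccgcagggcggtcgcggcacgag
Agt (chr8:124569707-124569956, minus strand): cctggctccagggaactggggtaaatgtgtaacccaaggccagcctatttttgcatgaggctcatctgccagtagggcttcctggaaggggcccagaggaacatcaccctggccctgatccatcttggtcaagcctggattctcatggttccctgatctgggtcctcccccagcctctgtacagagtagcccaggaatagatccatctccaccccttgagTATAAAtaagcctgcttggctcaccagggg

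The Ace and Agt windows each held 1 TATA box letter match, in Ace on the reverse strand, and the Ednra and Ednrb windows held none of the 3 motifs. The RefSeq start of Ednrb lies inside the gene span given above, which begins on the minus strand at 103844402. Its whole window is therefore within that span and not upstream of it. Neither of the other motifs was found in any of the 4 windows. Of 32851 promoters of the same length in the RefSeq table, 12.4% held TATAAA, 6.75% TGANTCA and 9.99% AGATAA. The GC content was 54.8% for Ednra, 56.8% for Ednrb, 67.2% for Ace and 55.6% for Agt, against a median of 52.4% over all of them. For Ace the table holds a second start inside the gene, and gene counts cannot tell the starts apart.

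With genotype alone, limma called 0 of the 8 members and 0.00657% of all genes tested, which is 1 gene of 15229. The edgeR test called 0 members and 0.00657% of genes, and DESeq2 called 0 members and 0.046% of genes. At an unadjusted p under 0.05, limma found 0 members and 0.939% of all genes, edgeR 0 and 0.998%, and DESeq2 1, Agt, and 1.43%. Set-adjusted, limma called 0 members and 0.00657% of all genes, and edgeR 0 members and 0.0131%. At an unadjusted p under 0.05 these fits gave 1 member and 3.51% of genes in limma, 1 and 3.51% in edgeR, and 2 and 3.66% in DESeq2. The members' median log2 difference was 0.30 with genotype alone and 0.19 in the set-adjusted fit, against 0.0007 and −0.003 over all genes tested. With the shared title number as a replicate block, limma called 0 members and 0.0% of all genes. In that fit 2 members and 5.13% of all genes had an unadjusted p under 0.05. The 2 were Ece1 (log2 −0.36) and Agt (log2 3.76), each with a limma adjusted p of 0.943. The genotype difference of this block fit rests on knockout 1 and 2 and wild type 1 and 2.

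**Figure D4:**
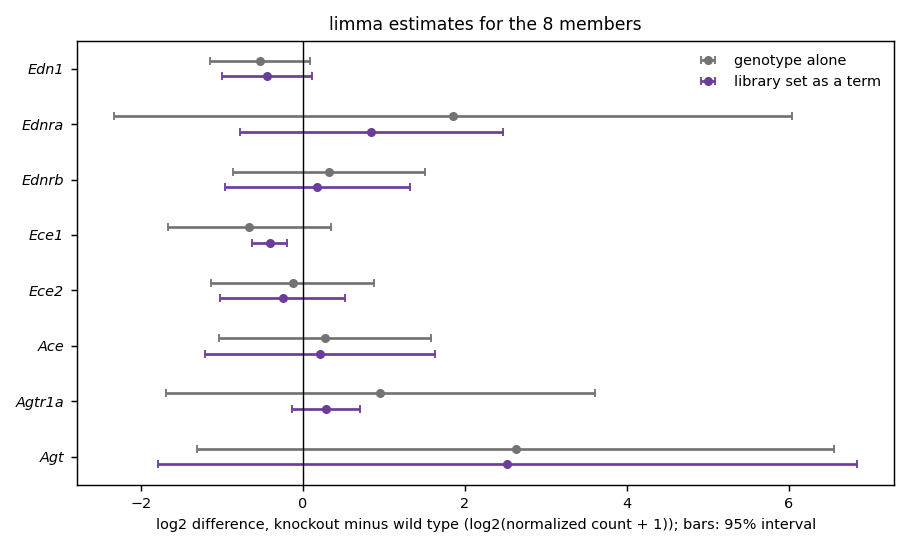
Limma log2 differences, knockout minus wild type, for the 8 genes with 95% intervals, with genotype alone (grey) and set-adjusted (purple). The set-adjusted interval of Ece1, −0.62 to −0.20, is the one that leaves out 0; those of Ednra and Agt span several log2 units.

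Per kilobase of exon, Ece1 led the members, with 1715 to 4691 counts per kb over the 6 libraries (median 2232). Ace followed at 983 to 3143 (median 1355), Edn1 at 723 to 1409 (median 1172) and Ednrb at 233 to 732 (median 307). Ednra had 21.03 to 990 (median 231), Agtr1a 12.8 to 116 (median 89.7), Agt 0.534 to 68.5 (median 4.14) and Ece2 1.41 to 2.68 (median 2.16). The ranges of all neighbours in this order overlapped over the 6 libraries. In each single library, however, Edn1 was above Ednrb, and Agtr1a was below both receptor genes of endothelin and above Agt and Ece2. Ace led in knockout 2 and 3, and Ece1 in knockout 1 and 4 and both wild type libraries.

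Genes were ranked by the likeness of their pattern over the 6 libraries to that of each member with a mean of at least 50 counts. For Ednra (Serpina3m and Slc28a2), Ece1 (Bcr and Pgm2l1) and Agtr1a (Chic2 and Zc3h7b) the most like genes are named alone, since the library sets of these members did not overlap and no pooled r is given. Over 12041 genes with a mean of at least 50 counts, Edn1 was most like Ston2 (Pearson r = 0.981 over 6 libraries) and Lfng (r = 0.970), a glycosyltransferase gene of the Notch pathway. Ednrb was most like Stx5a (r = 0.996) and Fbxo32 (r = 0.995), and Ace most like Poldip2 (r = 0.991) and Rpl7 (r = 0.989). Values of r over 0.95 were reached by 12 genes for Edn1, 67 for Ednrb and 58 for Ace. These are descriptions of 6 libraries in which all genes share the set and depth of each library.

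Of 25 other genes of both systems, 23 had a read in some library, 15 passed the filter of 10 counts and 0 were called. That held in limma, edgeR and DESeq2, set-adjusted or not. At an unadjusted p under 0.05, limma found 0 in either fit, and the set-adjusted edgeR test found 1 and DESeq2 2. Set-adjusted, 8 were above 0 and 7 below, with a median log2 of 0.04 against −0.003 over all genes tested.

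Among peptide-degrading enzymes, the neprilysin gene Mme, whose product degrades endothelins and makes angiotensin 1-7, had 224, 873, 622 and 409 counts in knockout 1 to 4, against 112 and 394 in wild type 1 and 2. It was above the wild type of its set in 4 of 4 libraries, by log2 0.05 in knockout 4, as were 10.1% of all genes tested. The log2 difference of Mme was 0.77 ± 0.32 (SE, set-adjusted limma, adjusted p = 0.999). Enpep, the aminopeptidase A gene that degrades angiotensin II, had 577, 2929, 2342 and 1779 counts in knockout 1 to 4, against 313 and 1798 in wild type 1 and 2, and differed by 0.57 ± 0.23 in the same fit. The 2 genes again had knockout 2 and 3 as their highest libraries. Without knockout 4, set-adjusted DESeq2 called Mme (adjusted p = 0.0281) and Enpep (adjusted p = 0.0468), among 0.946% of all genes tested. With all 6 libraries, or without any other single one, it called neither. Knockout 4 was the 1 knockout library with Enpep below the wild type of its set (log2 −0.02) and had the smallest rise of Mme. The calls thus rest on leaving out the library that did not share the rise. The aminopeptidase genes Anpep and Lnpep differed by 0.25 ± 0.12 and 0.06 ± 0.09, and the peptidase genes Thop1, Nln, Prep and Prcp by −0.15 ± 0.09, 0.06 ± 0.07, −0.03 ± 0.07 and −0.28 ± 0.14 (log2, SE, same fit).

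Renin and the other endothelin ligands were at or near 0. Ren1, the renin gene, was at 0 in all libraries except knockout 1, which had 1 read. Edn2 and Edn3, the genes of the other endothelins, reached at most 4.11 and 3.14 counts. Mas1, the receptor gene for angiotensin 1-7, and Kel, a related endopeptidase gene, had no read in any library. Ecel1 and Mmel1, relatives of the converting enzymes, reached at most 17.2 and 5.14 counts, and Ctsg, the cathepsin G gene, at most 5.14.

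Of the other receptors, Agtr2, the type 2 angiotensin II receptor gene, had 1.03, 12.8, 12.0 and 11.1 counts in knockout 1 to 4, against 1.05 and 2.30 in wild type 1 and 2, and failed the filter. Agtr1b had 6.39 to 17.2 counts in knockout libraries and 75.4 and 4.61 in wild type 1 and 2. Agtrap, whose product binds the type 1 receptor, and Atp6ap2, the prorenin receptor gene, differed by 0.09 ± 0.17 and 0.04 ± 0.09 (log2, SE, set-adjusted limma). The bradykinin receptor genes Bdkrb1 and Bdkrb2 differed by −0.10 ± 0.34 and −0.38 ± 0.22, and Nr3c2, the mineralocorticoid receptor gene, by −0.33 ± 0.25. Cma1, the mast cell chymase gene whose product can make angiotensin II, had 74.0 counts in knockout 1 and 0 in knockout 2, 3 and 4, against 4.19 in wild type 1 and 0 in wild type 2.

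**Figure D5:**
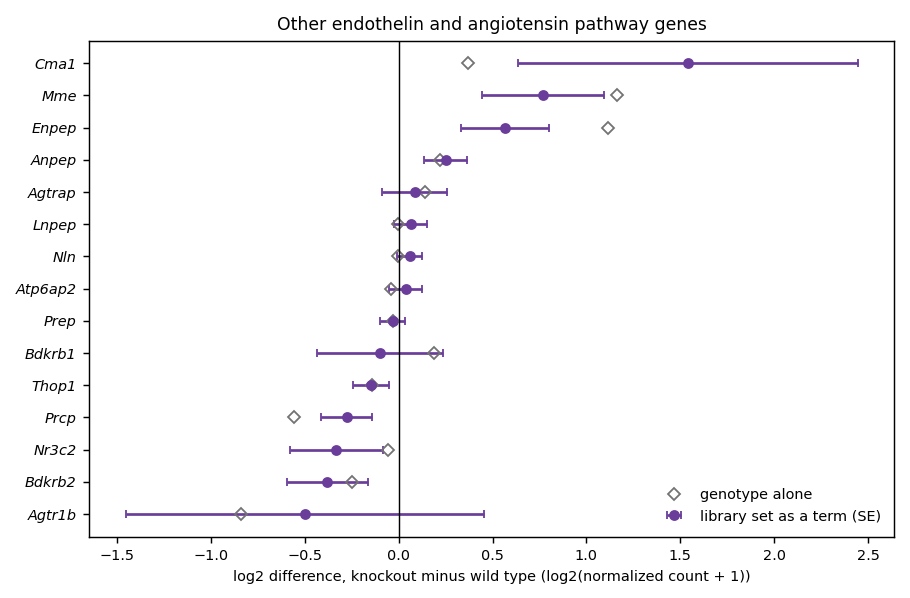
Limma log2 differences, knockout minus wild type, of the 15 other endothelin and angiotensin genes that passed the filter, set-adjusted (purple, with SE) and with genotype alone (open diamonds). Mme and Enpep lie at 0.77 and 0.57, and Agtr1b and Cma1 have the widest errors.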

How the data were processed

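Poly(A)-selected RNA of 6 primary cultures was sequenced as single-end reads of 100 nt, per the series design text. The deposited values are a normalized count signal, in which the authors scaled the reads of each library by its own size factor. The submitters' processing notes name Trimmomatic 0.36, STAR 2.6.0c, featureCounts of Subread 1.6.1 and GRCm38.p6, while the design text names Trimmomatic 0.32, STAR 2.4.2a, HTSeq, GENCODE M17 and DESeq2 1.10.1. Neither of these is tied to the table, and a strand setting for counting is not given in the sources consulted. In GENCODE M21, used here for positions and exon lengths, 6 of the 8 members overlap another gene. Of these overlapping genes, 0 have a row under that name in the deposited data, and any reads shared with them cannot be told apart.

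Every value was a whole multiple of its library's smallest value, within 1e-06 of a read, for 100% of values, so reads could be recovered. Libraries of 1 genotype differed by far more than sampling noise (chi-square per gene from 28.4), so all 6 were kept.

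The main test was limma 3.58.1 (R 4.3.3; lmFit, then eBayes with trend) on log2(normalized count + 1), over the 15229 genes whose mean reached 10, with Benjamini-Hochberg adjustment over all of them and a threshold of 0.05. EdgeR 4.0.16 (quasi-likelihood) and DESeq2 1.42.0 were run on the recovered reads, and set-adjusted fits held the library set as a further term. The fits were also run on simulated data, in which only genes with a mean of at least 50 were changed. Genes below that mean, such as Ece2 and Agt, and differences as small as that of Ece1 were not covered. Members and lists were chosen with earlier results of these data known. The named genes are the 8 members, all other listed pathway genes with a read (except 1 that is not reported here), the 2 most like genes of a member, and, from 2 neighbouring lists (Gq signalling and other vasoactive peptides), the called genes and the 2 of largest difference. Pathway genes with no read are named as such, and single cell type markers were chosen after their values were seen. Fits of DESeq2 with the library set and without 1 library were added after seeing the data. Title numbers 1 and 2 occur in both genotypes, but nothing in the labels ties them to a shared animal, litter or day.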

Additional observations from a re-analysis of the deposited data

Results flagged for a closer look

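Among the 25 members and other pathway genes reaching 10 counts in a knockout library, 4 had 1 knockout library far from the other 3. The rule was Dixon's test at the 95% level of the gap over the range. Chance reaches that level in about 1 group of 20 only where the libraries of a group are alike. In all 4 genes the library apart was knockout 1, the single knockout library of set 1. Set 1 lay wholly below the other libraries in 32.7% of all genes tested and wholly above them in 30.7%. The share of all genes tested that this rule would flag was not computed, so these 4 genes are not shown to be unusual. Ece1 had 20267 counts in knockout 1 and 9089 to 10132 in the other knockout libraries. Prcp, the gene of a peptidase that removes the last residue of angiotensin II, had 3399 counts in knockout 1 and 1773 to 1870 in the others. Agtr2 had 1.03 counts in knockout 1 and 11.1 to 12.8 in the others. Cma1 had 74.0 counts in knockout 1 and 0 in the others.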

How the results depend on the processing

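The number of members called was 0 in the main test and under the other settings tried except set-adjusted DESeq2, which called 1 (Ece1). The number of genes called overall was 1, and moved to 7 in DESeq2 with genotype alone, 50 in DESeq2 and 2 in edgeR when set-adjusted, 2 with a pseudocount of 5, and 0 within set 2, where the wild type arm is 1 library assumed to vary like the knockout libraries. A replicate block on the title number gave 0, with 0 members called. It rests on numbers 1 and 2, since 3 and 4 occur in knockout alone. Same-numbered libraries deviated together from their group means (r = 0.841 for number 1 and 0.562 for number 2, over 15229 genes). This follows the library sets in part, and 2 pairs do not establish pairing. Leaving out 1 library in turn gave 0 to 2 genes called overall in limma, and 0 members. Set-adjusted DESeq2 called 28, 41, 11 and 144 genes without knockout 1, 2, 3 and 4, and 27 and 73 without wild type 1 and 2, with 0 to 1 members (Agt, without knockout 4). Other pathway genes called numbered 0 in each fit on all 6 libraries.

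Of 158 values of single members under 20 alternatives, 151 kept their sign and side of the threshold, 1 became a call and 6 changed sign, all 6 on leaving out a library. These were Ednrb without knockout 2 (−0.0036), Ece2 without knockout 1 (0.0388) and without wild type 2 (0.0028), Ace without knockout 2 (−0.0525) and without wild type 2 (−0.0629), and Agtr1a without wild type 1 (−0.41); the cause was not tested. Over all single leave-outs the log2 difference ran from −0.64 to −0.40 for Edn1, 0.12 to 3.59 for Ednra, −1.10 to −0.22 for Ece1, 1.72 to 3.73 for Agt, −0.0036 to 0.58 for Ednrb, −0.25 to 0.0388 for Ece2, −0.0629 to 0.61 for Ace and −0.41 to 2.32 for Agtr1a. Other scalings moved the median of all genes by under 0.1 (0.0094 with TMM and 0.02 with totals of reads) and turned no member's sign. Ece2 and Agt, with 1 to 142 reads per library, are limited by counting, and gave no value under a mean of at least 50.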

Other observations

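The Gq signalling list held 18 genes that relay or dampen receptor signals, not all of them through Gq proteins. All were tested and 0 were called in limma, edgeR and DESeq2, set-adjusted or not. At an unadjusted p under 0.05, limma found 1 in either fit, and the set-adjusted edgeR test found 1 and DESeq2 2. Their median log2 was −0.03 in the set-adjusted fit, against −0.003 over all genes tested. The 2 with the largest difference were regulators of G protein signalling, which shorten the signal of active G proteins. Rgs5 differed by 2.31 ± 0.90 and Rgs4 by 1.00 ± 0.40 (log2, SE, set-adjusted limma). Rgs4 had 104, 288, 292 and 131 counts in knockout 1 to 4, against 41.9 and 127 in wild type 1 and 2. Rgs4 and Rgs5 were each above the wild type of their set in 4 of 4 libraries, as were 10.1% of all genes tested. For Rgs5 the 2 groups did not overlap, which held for 4.68% of all genes tested in either direction. Set-adjusted DESeq2 did not call Rgs5 with all 6 libraries. It called Rgs5 without knockout 1 (adjusted p = 0.00401) and without wild type 1 (0.00429), which is in effect 1 comparison, of knockout 2, 3 and 4 with wild type 2 alone. Without knockout 4, where it called 144 genes in all, it called Rgs5 (adjusted p = 0.0209), Rgs4 (adjusted p = 0.00301) and Rgs2 (adjusted p = 0.00544).

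Of 13 genes of other vasoactive peptide systems, 10 were tested and 0 were called in the same fits. At an unadjusted p under 0.05, limma found 0 in either fit, and the set-adjusted edgeR test found 1 and DESeq2 0. Their median log2 was −0.17 in the set-adjusted fit, with 8 below 0 and 2 above. Ramp2, the partner gene of the adrenomedullin receptor, had 729, 1016, 674 and 516 counts in knockout 1 to 4, against 1270 and 872 in wild type 1 and 2. Apln, the apelin gene, had 2242, 1699, 1929 and 1470 counts in knockout 1 to 4, against 4355 and 1701 in wild type 1 and 2.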
